A study of Mus musculus with 16 samples.

Results

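Transcripts of 8 genes of the CCN family and of the YAP target genes were followed in mouse lung endothelial cells (MLECs) that had received BMP9. The genes are *Ccn1*, *Ccn2*, *Ccn3*, *Ccn4*, *Ccn5*, *Ankrd1*, *Amotl2* and *Ajuba*. They were taken by name from the 55414 genes in the count table. The rule uses no measured value, but the names were chosen with earlier results of these data known. All 8 passed the filter on low counts that left 15693 genes for testing. MLECs were prepared from 4 isolations of *Eng* fl/fl mice that carry *Rosa26*-CreERT2, a tamoxifen-inducible Cre under a ubiquitous promoter, and the Immorto transgene, which immortalises the cells conditionally. All cells therefore share the floxed alleles, the Cre and the transgene. All were grown with interferon-γ and the TGF-β receptor inhibitor SB431542. Both were left out of the medium when the cells were seeded, before serum starvation. Each isolation was split into control cells (Ctrl, genotype WT in the labels), which were exposed to vehicle, and *Eng* knockout cells (KO), which were exposed to 4-OH-tamoxifen in culture. Ctrl cells received PBS or BMP9 in complex with monomeric soluble endoglin (sENG(M):BMP9), and KO cells received PBS or the BMP9 complex that retains the prodomain (pro:BMP9). The dose was 0.2 ng/ml in both cases, counted as growth factor domain, and the treatment lasted 90 min. Treated Ctrl cells also received soluble endoglin in large excess over BMP9, and no other group did. This gave 4 groups of 4 libraries, 16 in all, and libraries with the same replicate number came from the same isolation. In PBS, the 4-OH-tamoxifen given to KO cells cannot be told apart from the missing *Eng*. With ligand, and in the difference of responses, the form of the ligand and the excess of soluble endoglin cannot be told apart from either. In the ligand response of Ctrl cells that excess cannot be told apart from BMP9. The ages of the mice are not given in the sources used here.

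BMP9 is a circulating ligand of endothelial cells that signals through ALK1 and SMAD1/5, and endoglin (ENG) is its co-receptor. CCN proteins are secreted matricellular proteins, made of modules that bind integrins, proteoglycans and growth factors, and in the vessel wall they are known for roles in adhesion, sprouting and matrix turnover. In the Hippo pathway the kinases LATS1 and LATS2 phosphorylate YAP and TAZ and keep them out of the nucleus. When these kinases are less active, YAP and TAZ enter the nucleus and bind TEAD factors at CATTCC motifs. *Ccn1*, *Ccn2*, *Ankrd1*, *Amotl2* and *Ajuba* are textbook targets of this step, and the products of the last 2 also act back on the pathway. *Ccn3*, *Ccn4* and *Ccn5* belong to the same gene family without being standard markers of YAP activity.

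The RefSeq promoter table (build GRCm38.p6) matched 4 of the 8 genes, all 4 of them textbook YAP targets. The 250 bases before each start site are printed because they carry the motif that TEAD factors bind. Capitals mark CATTCC or its reverse complement GGAATG. The windows are chr3:145649986-145650235 on the minus strand for *Ccn1*, chr19:36119845-36120094 on the minus strand for *Ankrd1*, chr9:102717554-102717803 on the plus strand for *Amotl2* and chr14:54577662-54577911 on the minus strand for *Ajuba*, each written 5′ to 3′ on the strand of the gene.
Ccn1: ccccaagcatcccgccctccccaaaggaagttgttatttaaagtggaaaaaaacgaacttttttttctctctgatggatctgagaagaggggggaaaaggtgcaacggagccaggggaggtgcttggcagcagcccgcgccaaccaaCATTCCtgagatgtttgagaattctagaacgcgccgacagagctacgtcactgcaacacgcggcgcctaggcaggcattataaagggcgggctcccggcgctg
Ankrd1: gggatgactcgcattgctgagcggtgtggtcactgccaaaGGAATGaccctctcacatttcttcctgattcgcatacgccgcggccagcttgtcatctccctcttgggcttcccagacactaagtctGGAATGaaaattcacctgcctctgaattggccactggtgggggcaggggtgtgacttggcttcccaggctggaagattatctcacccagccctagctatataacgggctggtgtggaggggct
Amotl2: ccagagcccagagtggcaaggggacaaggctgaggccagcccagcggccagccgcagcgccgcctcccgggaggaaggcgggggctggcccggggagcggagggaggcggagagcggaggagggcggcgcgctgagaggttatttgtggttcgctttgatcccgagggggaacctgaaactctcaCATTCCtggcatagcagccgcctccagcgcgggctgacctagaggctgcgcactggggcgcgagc
Ajuba: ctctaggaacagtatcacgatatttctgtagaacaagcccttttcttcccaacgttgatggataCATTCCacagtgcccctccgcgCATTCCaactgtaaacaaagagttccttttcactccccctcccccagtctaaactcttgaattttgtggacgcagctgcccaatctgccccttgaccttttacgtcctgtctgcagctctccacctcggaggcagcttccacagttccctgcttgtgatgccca
All 4 windows hold the motif, searched on both strands, against 12.6% of the 32851 promoters of the table in windows of the same length. In *Ccn1* the motif lies 103 to 98 bases before the start and in *Amotl2* 65 to 60 bases before it. *Ajuba* has 2 copies, at 186 to 181 and at 164 to 159 bases before the start, and *Ankrd1* has 2 copies on the opposite strand, at 210 to 205 and at 123 to 118 bases. GGCGCC, a GC-rich motif bound by BMP-activated SMADs and its own reverse complement, was found once, 42 to 37 bases before the start of *Ccn1*, against 9.59% of all promoters. These matches are descriptions of the letters in the windows and not of bound sites.

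Library totals lay between 14869115 and 17242117 counts. *Eng* was at 460 ± 93.5 CPM (read counts scaled to a common library total after TMM normalisation, in the usual CPM unit) in Ctrl PBS and 51.2 ± 8.36 CPM in KO PBS (SD, n = 4). With ligand it was at 641 ± 104 CPM in Ctrl and 120.3 ± 7.22 CPM in KO cells, a log2 fold change of 0.48 ± 0.09 (SE, adjusted p = 0.00163) and 1.23 ± 0.11 (2.8e-07), and every KO library had less *Eng* than every Ctrl library. Among the 12 endothelial markers, *Pecam1* lay between 702 and 1945 CPM and *Cdh5* between 1447 and 2787 CPM in all 16 libraries. *Kdr* lay between 26.1 and 208 CPM and *Vwf* between 2.82 and 43.0 CPM. The alveolar marker *Sftpc* had 0 counts throughout, which at a floor of 3 counts per library allows up to 0.207 CPM. *Krt18*, from the same list of 7 epithelial markers, lay between 45.9 and 177 CPM. Of 7 leukocyte markers *Ptprc* had at most 5 counts, while *Cd68* lay between 27.3 and 40.2 CPM and *Cd14* between 12.2 and 94.7 CPM. The 4 mesothelial markers summed to between 4.07 and 351 CPM, and *Msln* reached 247 CPM. Of 9 fibroblast markers, *Dpt* and *Mfap5* had from 0 to 7 and from 0 to 5 counts, while *Col1a1* reached 436 CPM. The fibroblast marker sum was 105 to 120 CPM in isolation 2 and 397 to 808 CPM in the others. Of 11 BMP target genes listed as a check, 10 rose with ligand in Ctrl and in KO cells, including *Id1* (log2 fold change 2.51 ± 0.13 (SE) in Ctrl and 2.55 ± 0.13 in KO cells) and *Smad6* (3.45 ± 0.06 and 3.21 ± 0.06).

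*Ccn2* had the highest level of the 8 genes when counts were divided by transcript length, and *Ccn5* the lowest. On the scale of CPM per kb the order was *Ccn2*, *Ccn1*, *Ccn3*, *Amotl2*, *Ajuba*, *Ankrd1*, *Ccn4* and *Ccn5* in each of the 4 groups. In Ctrl PBS the levels were 231 ± 112 CPM per kb for *Ccn2*, 105 ± 52.3 for *Ccn1*, 41.7 ± 8.69 for *Ccn3* and 24.1 ± 4.24 for *Amotl2* (SD, n = 4). The lower 4 were *Ajuba* at 9.18 ± 2.12, *Ankrd1* at 4.21 ± 1.5, *Ccn4* at 2.74 ± 1.78 and *Ccn5* at 0.539 ± 0.409 CPM per kb. The ranges of *Ccn2* and *Ccn1* overlapped in every group, as did those of *Ankrd1* and *Ccn4*. *Ccn3* and *Amotl2* overlapped in both ligand-treated groups, and *Ccn4* and *Ccn5* in every group except Ctrl sENG(M):BMP9. No other neighbours in the order overlapped. Only 0.981% of the 15693 tested genes had a higher mean level per kb than *Ccn2*, and 2.24% were higher than *Ccn1*, whereas 61.9% were higher than *Ccn4* and 88.1% higher than *Ccn5*. The sixth gene of the family, *Ccn6*, had 5 counts in all 16 libraries together and was not tested.

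The ligand comparisons ask which of these genes change with BMP9 in Ctrl cells and which in KO cells. A call in 1 cell type only does not show that a response depends on endoglin. The difference of responses, given below, was called for none of the 8 genes. In Ctrl cells sENG(M):BMP9 raised *Ccn1*, *Ccn4*, *Amotl2* and *Ajuba* and lowered *Ccn3*, at an adjusted p under 0.05 over all tested genes (edgeR's quasi-likelihood F-test, blocked by isolation). These 4 genes stand beside 5.86% of all tested genes that were called higher, and the 1 lower gene beside 3.83% called lower. In KO cells pro:BMP9 raised *Ccn1*, *Amotl2* and *Ajuba* and none of the 8 was called lower by edgeR or DESeq2 (1 of them, *Ccn3*, had an unadjusted p under 0.05), where edgeR called 3.68% of all genes higher and 1.92% lower. *Ccn2*, *Ccn5* and *Ankrd1* were not called in either cell type. All changes were small beside the median log2 fold change of the 11 BMP target genes, 2.51 in Ctrl and 2.55 in KO cells. The largest was 1.43-fold, for *Ccn1* in Ctrl cells. None of these calls held without the replicate block, with adjusted p from 0.995 to 1.00 in Ctrl and from 0.819 to 1.00 in KO cells.

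**Figure D1:**
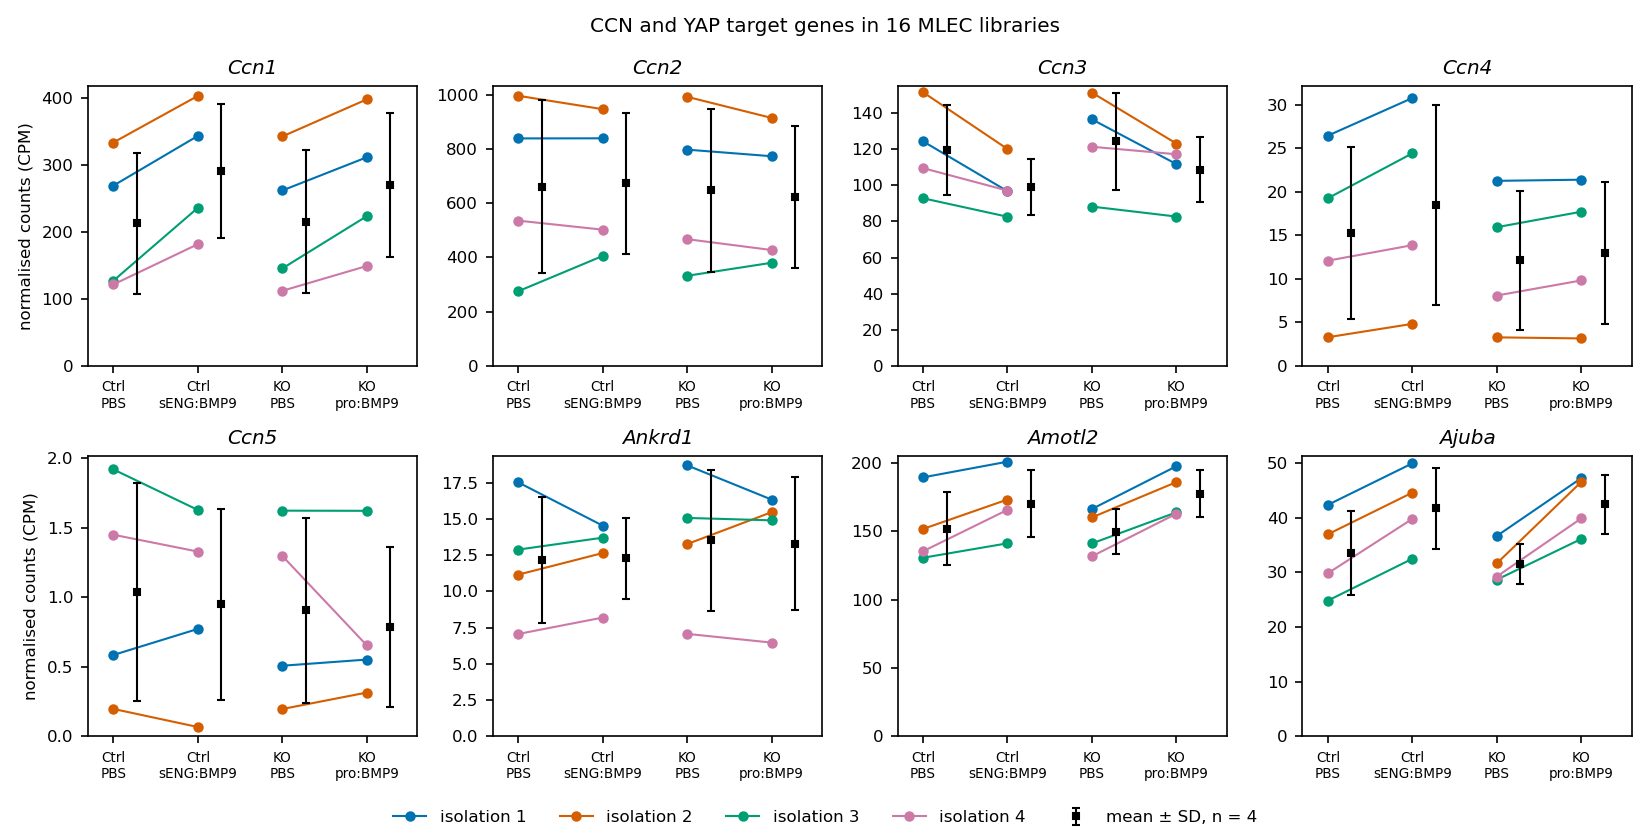
Normalised counts (CPM, linear axis from 0) of the 8 genes in the 16 libraries; coloured points are single libraries, lines join PBS and ligand of the same isolation, and black squares with bars are the mean ± SD of 4 libraries. All lines of *Ccn1*, *Amotl2* and *Ajuba* go up and all lines of *Ccn3* go down. In *Ccn4* the isolations stay apart by more than the ligand moves them, and in *Ccn2* they keep their order in every group.

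*Ccn1* (ENSMUSG00000028195), formerly *Cyr61*, encodes a matricellular integrin ligand and is an immediate early gene. It lies on chromosome 3 at 145352731 to 145355736 on the minus strand of GRCm39, with 5 exons in a GENCODE annotation of that build. In Ctrl PBS it had 269, 333, 127 and 121 CPM in isolations 1 to 4, and with sENG(M):BMP9 it had 343, 403, 236 and 182 CPM. The groups overlapped, but each ligand-treated library was above the PBS library of its own isolation. The log2 fold change was 0.52 ± 0.08 (SE, adjusted p = 0.000185, higher in 4 of 4 isolations), with single isolations between 0.27 and 0.89. In KO PBS the values were 262, 342, 145 and 112 CPM, and with pro:BMP9 they were 311, 398, 223 and 149 CPM. The rise was again present in 4 of 4 isolations, at a log2 fold change of 0.37 ± 0.08 (adjusted p = 0.00664). In both cell types isolation 3 rose most and isolation 2 least. Among the genes called higher, *Ccn1* held place 352 of 920 by size in Ctrl and place 316 of 577 in KO cells. An opposite-strand transcript, *Gm17501*, overlaps the gene and had 14 to 56 counts per library, against 1900 to 6324 for *Ccn1*. The strand setting of the counting is not given in the sources used here, so reads of overlapping opposite-strand genes may not be separated.

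*Ccn2* (ENSMUSG00000019997), formerly *Ctgf*, encodes the matricellular protein best known as a profibrotic factor and is the usual companion of *Ccn1* as a YAP readout. It is on chromosome 10 at 24471340 to 24474581, plus strand. The Ctrl PBS libraries had 839, 997, 275 and 536 CPM, and the Ctrl sENG(M):BMP9 libraries 839.8, 947, 405 and 503 CPM. Only isolation 3 was clearly higher with ligand, isolation 1 was level and the others were lower. In KO cells the values were 798, 993, 332 and 467 CPM in PBS and 774, 915, 380.4 and 427 CPM with pro:BMP9, again higher in isolation 3 only. The fitted log2 fold change was 0.09 in Ctrl (95% CI -0.09 to 0.26, adjusted p = 0.665) and -0.02 in KO cells (95% CI -0.20 to 0.15, adjusted p = 0.97). Without isolation 3 the value in Ctrl cells turned to -0.06. The intervals thus leave room for changes of up to 0.26 on the log2 scale. *Ccn2* overlaps *Gm15270* on the opposite strand, which had 313 to 1031 counts per library against 4591 to 15194 for *Ccn2*.

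*Ccn3* (ENSMUSG00000037362), formerly *Nov*, encodes a family member that binds NOTCH1 and is often regulated opposite to *Ccn2*. It is on chromosome 15 at 54609098 to 54617435, plus strand, and no gene of the annotation overlaps it. Ctrl PBS libraries had 124, 152, 92.8 and 109.5 CPM, and Ctrl sENG(M):BMP9 libraries 96.7, 120.1, 82.6 and 97.1 CPM. Each isolation was lower with ligand, although the groups overlapped. The fall was 0.26 ± 0.06 on the log2 scale (a log2 fold change of -0.26, adjusted p = 0.00475, lower in 4 of 4 isolations), or -16.6%. The adjusted p was 0.0565 without isolation 1 and 0.0644 without isolation 2. In KO cells the values were 137, 151, 88.2 and 121 CPM in PBS and 112, 123, 82.7 and 117 CPM with pro:BMP9. These were also lower in 4 of 4 isolations, at a log2 fold change of -0.18 ± 0.06 that was not called (adjusted p = 0.0798). This KO value passed the threshold in 3 of 9 alternatives. These were no filter on low counts (adjusted p = 0.00654), a fit of the KO libraries alone (0.0223) and leaving out isolation 4 (0.0345). In DESeq2 its adjusted p was 0.111. The fit with no filter called more genes over the whole table, 1102 against 878 in this comparison. The difference of the ligand responses, KO minus Ctrl, was 0.08 (95% CI -0.09 to 0.25), so the missed threshold in KO cells does not show a different response.

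*Ccn4* (ENSMUSG00000005124), formerly *Wisp1*, is a WNT-induced family member expressed by fibroblasts and osteoblasts. It lies on chromosome 15 at 66763169 to 66795050, plus strand. In Ctrl PBS it had 26.4, 3.28, 19.2 and 12.1 CPM, and with sENG(M):BMP9 30.7, 4.82, 24.4 and 13.9 CPM. Isolation 2 was far below the others in both groups, at 50 and 72 counts, and each isolation was higher with ligand. The log2 fold change was 0.29 ± 0.08 (adjusted p = 0.0211, higher in 4 of 4 isolations). This call did not hold in DESeq2 (adjusted p = 0.0711) or without isolation 1 (0.0881), 2 (0.0831) or 3 (0.154). In KO cells the values were 21.2, 3.27, 15.9 and 8.07 CPM in PBS and 21.4, 3.14, 17.7 and 9.80 CPM with pro:BMP9. Isolations 1 and 2 were nearly level, and the log2 fold change was 0.11 (95% CI -0.07 to 0.29, adjusted p = 0.677). The responses of KO and Ctrl cells differed by -0.18 (95% CI -0.42 to 0.06, adjusted p = 1.00), which did not pass the test.

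*Ccn5* (ENSMUSG00000027656), formerly *Wisp2*, encodes the family member that lacks the C-terminal module. It is on chromosome 2 at 163662781 to 163675066, plus strand. It had 9, 3, 32 and 24 counts in Ctrl PBS and 13, 1, 28 and 23 counts in Ctrl sENG(M):BMP9. In KO cells it had 8, 3, 27 and 22 counts in PBS and 8, 5, 25 and 10 counts with pro:BMP9. Isolation 2 was lowest in every group, and 3 of its libraries lay at or under the floor of 3 counts. At this depth only large changes could have been seen: the 95% CI of the log2 fold change ran from -0.74 to 0.51 in Ctrl and from -0.85 to 0.49 in KO cells.

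*Ankrd1* (ENSMUSG00000024803) encodes a mechanosensitive ankyrin-repeat protein that binds titin in muscle and acts as a transcriptional cofactor in the nucleus, and it is a classical YAP target. It is on chromosome 19 at 36089361 to 36097499, minus strand, with 9 exons. In Ctrl cells it had 17.5, 11.2, 12.9 and 7.06 CPM in PBS and 14.5, 12.6, 13.7 and 8.20 CPM with sENG(M):BMP9, and only isolation 1 was lower with ligand. In KO cells it had 18.7, 13.3, 15.1 and 7.07 CPM in PBS and 16.3, 15.5, 14.9 and 6.47 CPM with pro:BMP9, where only isolation 2 was higher. Isolation 4 was the lowest in every group. The log2 fold change was 0.04 in Ctrl (95% CI -0.18 to 0.26, adjusted p = 0.922) and -0.02 in KO cells (95% CI -0.24 to 0.20, adjusted p = 0.978). Of the other 4 genes listed for its family and for titin binding, 1 was expressed enough to be tested and it was not called.

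*Amotl2* (ENSMUSG00000032531) encodes an angiomotin-family scaffold at endothelial junctions that binds YAP and holds it in the cytoplasm. It is on chromosome 9 at 102593871 to 102610617, plus strand, with 10 exons. Ctrl PBS libraries had 189, 152, 131 and 135 CPM, and Ctrl sENG(M):BMP9 libraries 201, 173, 141 and 166 CPM. KO PBS libraries had 166, 160.1, 141 and 132 CPM, and KO pro:BMP9 libraries 198, 186, 164 and 163 CPM. Every isolation was higher with ligand in both cell types, while the ranges of PBS and ligand overlapped. The log2 fold change was 0.17 ± 0.05 in Ctrl (adjusted p = 0.0394, 4 of 4 isolations) and 0.25 ± 0.05 in KO cells (adjusted p = 0.00419, 4 of 4 isolations). The call in Ctrl cells did not hold without isolation 2 (adjusted p = 0.151) or 4 (0.219).

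*Ajuba* (ENSMUSG00000022178) encodes a LIM-domain protein of adhesion sites that binds and inhibits LATS kinases. It lies on chromosome 14 at 54804929 to 54815015, minus strand, with 8 exons. In Ctrl cells it had 42.3, 36.9, 24.8 and 29.8 CPM in PBS and 49.9, 44.6, 32.5 and 39.8 CPM with sENG(M):BMP9. In KO cells it had 36.6, 31.6, 28.6 and 29.2 CPM in PBS and 47.2, 46.5, 36.1 and 39.9 CPM with pro:BMP9. Each isolation was higher with ligand, and in KO cells the highest PBS library was barely above the lowest ligand-treated library. The log2 fold change was 0.32 ± 0.06 in Ctrl (adjusted p = 0.00171, 4 of 4 isolations) and 0.43 ± 0.06 in KO cells (adjusted p = 0.000214, 4 of 4 isolations). With the isolation as a block, both calls held in DESeq2 and without any 1 isolation, as did both calls of *Ccn1*.

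**Figure D2:**
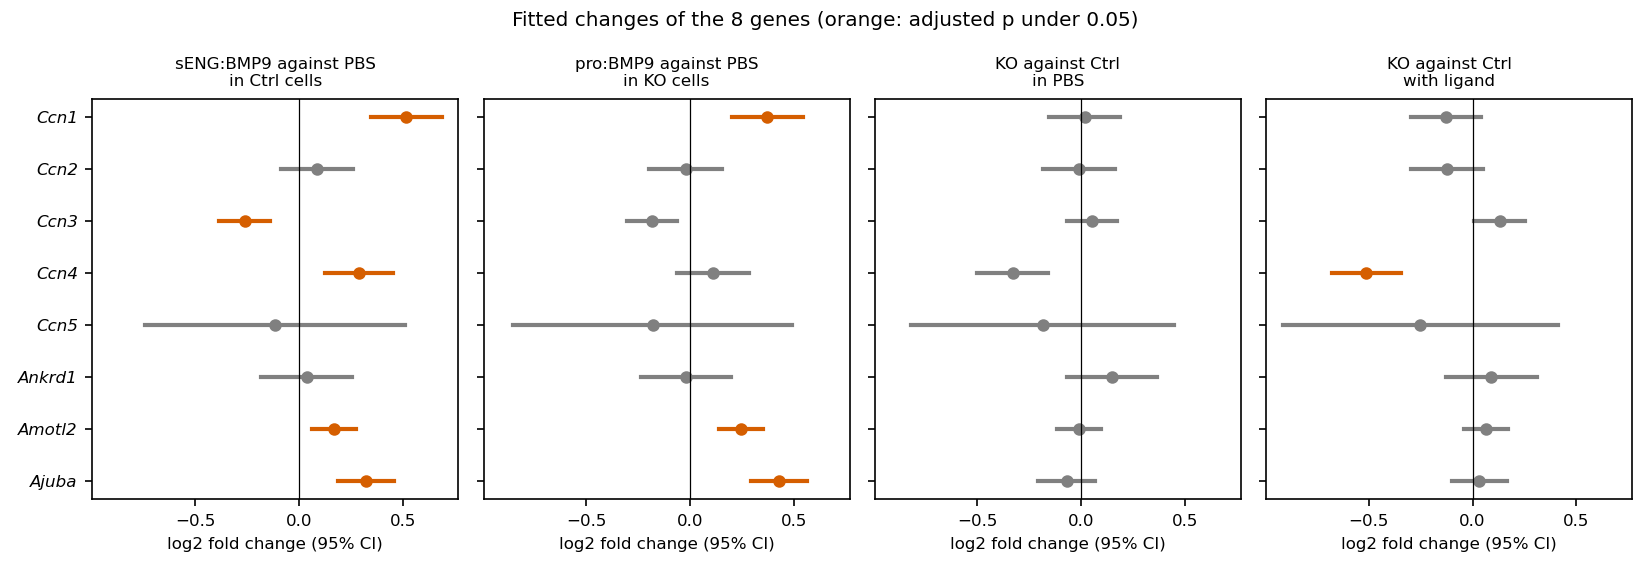
Fitted log2 fold changes (points) with 95% confidence intervals (lines) of the 8 genes in the ligand and genotype comparisons; orange marks an adjusted p under 0.05 over all tested genes. *Ccn1*, *Amotl2* and *Ajuba* are orange in both ligand comparisons, and *Ccn4* alone is orange between KO and Ctrl cells, with ligand.

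Whether loss of *Eng* alters these genes was asked by comparing KO with Ctrl cells. In PBS none of the 8 was called by edgeR or DESeq2, where edgeR called 0.0191% of all genes. In edgeR 1 of the 8 (*Ccn4*) had an unadjusted p under 0.05 there, beside 1071 of all 15693 tested genes. Ligand-treated KO cells had less *Ccn4* than ligand-treated Ctrl cells, and *Ccn4* was the 1 gene of the 8 called there, beside 0.255% of all genes (40 genes, and between 6 and 175 when 1 isolation was left out). For *Ccn1* the log2 fold change between KO and Ctrl cells was 0.02 in PBS (95% CI -0.16 to 0.19) and -0.13 with ligand (95% CI -0.30 to 0.04). For *Ccn2* it was -0.01 in PBS (95% CI -0.19 to 0.16) and -0.12 with ligand (95% CI -0.30 to 0.05). *Ccn3* had an unadjusted p under 0.05 with ligand without being called (0.13, 95% CI 0.01 to 0.25, adjusted p = 0.492, higher in 4 of 4 isolations), and in PBS its value was 0.05 (95% CI -0.07 to 0.17). *Amotl2* and *Ajuba* differed by 0.07 (95% CI -0.04 to 0.17) and 0.03 (95% CI -0.10 to 0.16) with ligand. *Ankrd1* had 0.15 in PBS (95% CI -0.07 to 0.37, higher in 4 of 4 isolations) and 0.09 with ligand (95% CI -0.13 to 0.31). The intervals of *Ccn5* were wide, from -0.82 to 0.45 in PBS and from -0.91 to 0.41 with ligand. The difference of both ligand responses was called for none of the 8 genes and for 0% of all genes by edgeR, although 565 genes had an unadjusted p under 0.05. DESeq2 called 46 genes, none of them among the 8, and 0 of the 8 had an unadjusted p under 0.05 in edgeR. Its confidence intervals lay between -0.39 and 0.09 for *Ccn1*, between -0.07 and 0.23 for *Amotl2* and between -0.09 and 0.29 for *Ajuba*, so that responses differing by up to these amounts could not have been told apart.

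With ligand, *Ccn4* was lower in KO cells by 29.8% (log2 fold change -0.51 ± 0.08, adjusted p = 0.00926, lower in 4 of 4 isolations), and the 4 isolations lay between -0.60 and -0.46. In PBS the log2 fold change was -0.33 ± 0.08 (adjusted p = 0.373, lower in 4 of 4 isolations), and isolation 2 was level at -0.01. The ligand-treated Ctrl libraries enter both the response of Ctrl cells and this comparison, so the 2 calls of *Ccn4* are not independent. The call was lost without the replicate block (adjusted p = 1.00), without isolation 1 (0.153) and without isolation 3 (0.0599). Markers of other cells moved with genotype as well. Of 7 tested fibroblast markers, the collagen-binding proteoglycan gene *Dcn* (-0.61 ± 0.09, adjusted p = 0.00835) and the collagen gene *Col3a1* (-0.47 ± 0.07, adjusted p = 0.00894) were lower in ligand-treated KO cells, and none was higher. In PBS, *Dcn* (-0.61 ± 0.09, adjusted p = 0.016) and *Col3a1* (-0.46 ± 0.07, adjusted p = 0.0285) were lower in KO cells as well. Of the 7 fibroblast markers, 5 in PBS and 6 with ligand had an unadjusted p under 0.05, all of them lower. Over all 15693 tested genes, 1071 in PBS and 1454 with ligand had an unadjusted p under 0.05 in either direction, and edgeR called 3 and 40. With ligand, of 8 tested mural markers, the PDGF receptor gene *Pdgfrb* was lower (-0.29 ± 0.05, adjusted p = 0.0289) and none was called higher. *Kcnj8* had a log2 fold change of 0.52 there (adjusted p = 0.0867, higher in 4 of 4 isolations). With ligand, the fibroblast marker sums of isolations 1 to 4 were 712, 120, 786 and 638 CPM in Ctrl cells. In KO cells they were 623, 105, 659 and 397 CPM, lower in every isolation. The mural sums were 296, 83.7, 347 and 248 CPM in Ctrl cells and 202, 85.3, 354 and 208 CPM in KO cells. These were lower in KO cells in isolations 1 and 4 and higher in isolations 2 and 3. None of 4 mesothelial markers was called by edgeR or DESeq2, their median log2 fold change was -0.47, and 2 had an unadjusted p under 0.05. The part of such cells in the *Ccn4* result was not tested. In bulk libraries fewer cells of a type and less RNA per cell cannot be told apart.

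The isolation accounted for most of the variance of log2 CPM in 7 of the 8 genes, from 61.0% for *Amotl2* to 95.5% for *Ccn2*, and for 49.6% in *Ajuba*. The groups accounted for 44.0% in *Ajuba*, 29.5% in *Amotl2*, 19.7% in *Ccn3* and 13.8% in *Ccn1*, and for 4.70% or less in the other 4 genes. *Ccn1*, *Ccn2* and *Ccn3* were highest in isolation 2, at means of 369, 963 and 137 CPM over its 4 libraries. *Ccn2* and *Ccn3* were lowest in isolation 3, at 348 and 86.6 CPM, and *Ccn1* was lowest in isolation 4, at 141 CPM. The endothelial marker sum had the same extremes as *Ccn2* and *Ccn3*, with 7930 CPM in isolation 2 and 4119 CPM in isolation 3. *Ccn4* and *Ccn5* were lowest in isolation 2, at 3.63 and 0.194 CPM, against 24.9 CPM for *Ccn4* in isolation 1 and 1.70 CPM for *Ccn5* in isolation 3. Fibroblast markers summed to 112 CPM and mural markers to 83.1 CPM in isolation 2, and to 519 CPM or more and 221 CPM or more in the others. *Ankrd1* stood apart from both patterns, with 7.20 CPM in isolation 4 and 13.1 to 16.8 CPM elsewhere. The part of cell composition in these levels was not tested.

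**Figure D3:**
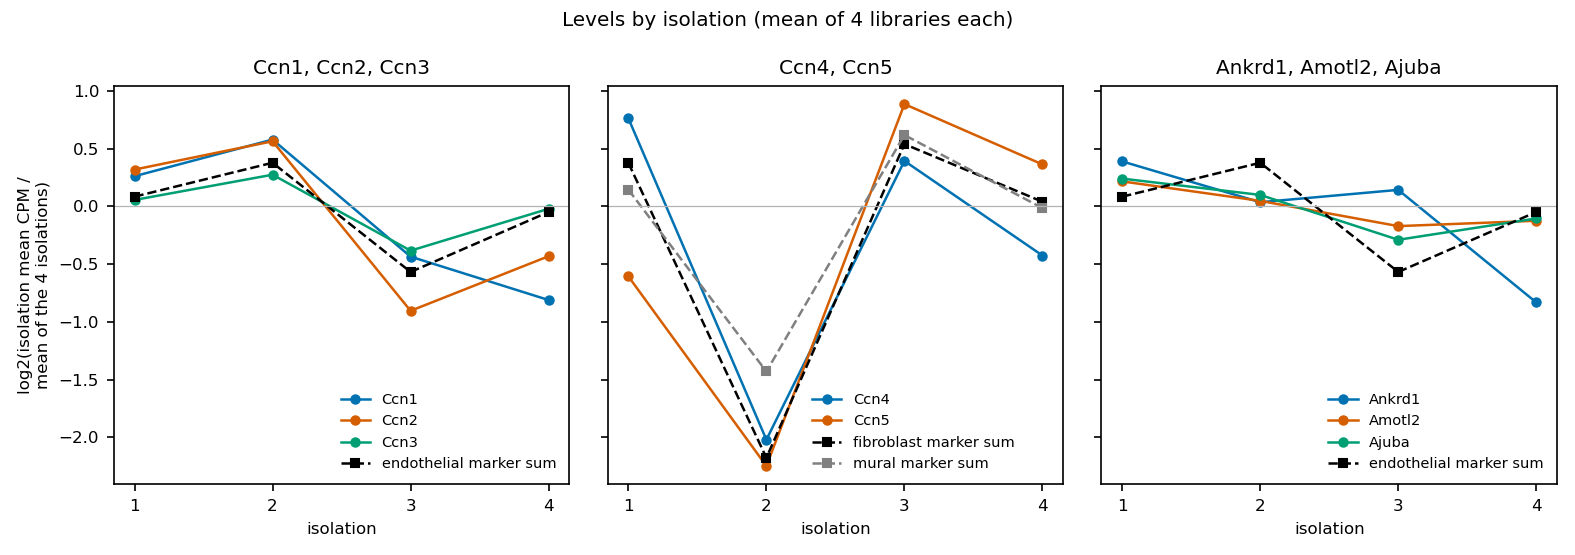
Mean CPM of each isolation over its 4 libraries relative to the mean of the 4 isolations (log2 axis), for 3 sets of genes, with summed CPM of endothelial, fibroblast or mural markers as dashed lines. *Ccn4*, *Ccn5* and the fibroblast and mural sums drop in isolation 2, where *Ccn1*, *Ccn2*, *Ccn3* and the endothelial sum peak.

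After the isolation means were removed, *Amotl2* and *Ajuba* followed each other over the 16 libraries (Pearson r = 0.913), and *Ccn1* followed *Ajuba* (0.837) and *Amotl2* (0.767). *Ccn3* ran against these 3 genes, with r between -0.772 and -0.696. *Ccn2* followed *Ccn1* more loosely (0.542) and was near 0 with *Amotl2* (0.091). These are descriptions of 16 libraries that share isolations and hold both treatments, so genes that respond to the ligand correlate by that alone. Among genes with a mean of at least 5 CPM, those most like *Ccn1* were *Pxdc1* (0.970), *Cdc42ep1* (0.969) and *Tnk2* (0.963). The closest to *Ajuba* were *Ier5l* (0.953), *Hbegf* (0.953) and *Prickle2* (0.951), and *Prickle2* (0.903) also came next for *Amotl2*, after *Ajuba* and *Ggta1* (0.903). The closest to *Ccn3* were *Ric8a* (0.947), *Pacsin3* (0.946) and *Dusp7* (0.945), and to *Ccn2* they were *Knstrn* (0.904), *Pus3* (0.865) and *Msrb1* (0.858). *Ccn4* was most like *1810030O07Rik* (0.922), *Pdgfrb* (0.896) and *Mettl7a1* (0.895). For *Ccn5* the closest were *Adam12* (0.887), *Prps1* (0.884) and *Map9* (0.862), and for *Ankrd1*, with the lowest values, *Maml2* (0.797), *Oas1b* (0.782) and *Trmt11* (0.776). *Ccn5* had 1 to 32 counts per library, with 3 libraries at or under the floor, which limits what its values show. All these genes were picked as the highest of 10993 candidates (10994 for *Ccn5*), and how high the top values run by chance was not tested.

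A list of 33 YAP/TEAD targets set these genes among others of their kind. It was written from general knowledge, but with earlier results of these data known. Apart from the 5 listed among the 8 genes, 27 were tested, of which 4 rose and 2 fell in Ctrl cells, and 3 rose and 1 fell in KO cells. Over all tested genes 5.86% were called higher and 3.83% lower in Ctrl cells, and 3.68% and 1.92% in KO cells. *Edn1*, which encodes the vasoconstrictor endothelin-1, rose most (log2 fold change 1.95 ± 0.10 in Ctrl with an adjusted p of 8.74e-11, and 1.88 ± 0.10 in KO cells with 3.38e-10). *F3*, tissue factor, rose by 1.00 ± 0.13 and 0.96 ± 0.13, and *Dlc1*, a RhoGAP, by 0.48 ± 0.08 and 0.39 ± 0.08. *Marcks*, an actin-binding substrate of protein kinase C, fell in both (-0.19 ± 0.03 and -0.15 ± 0.03). Each of these 4 genes moved the same way in 4 of 4 isolations. The median log2 fold change of the 27 genes was -0.0038 in Ctrl and -0.019 in KO cells, against -0.0051 and 0.00042 over all tested genes. Between KO and Ctrl cells none of the 27 was called by edgeR or DESeq2, and 3 in PBS and 7 with ligand had an unadjusted p under 0.05. Over all 15693 tested genes, edgeR called 3 in PBS and 40 with ligand, and 1071 and 1454 had an unadjusted p under 0.05.

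**Figure D4:**
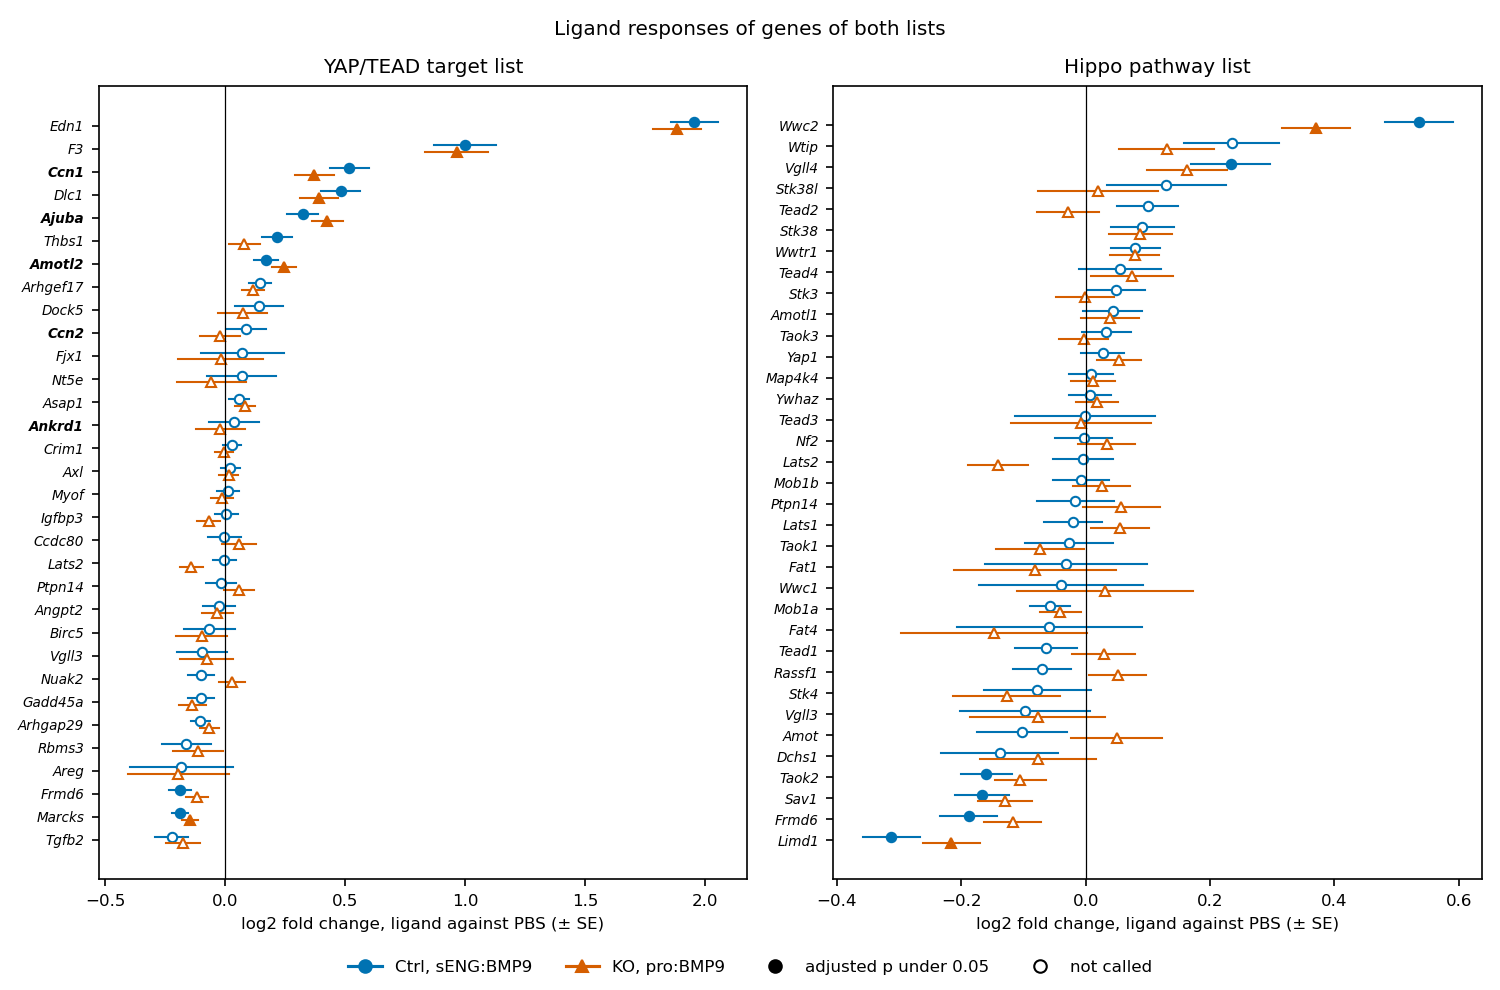
Log2 fold changes (± SE) with ligand of the tested genes of the YAP/TEAD target list and of the Hippo pathway list, leaving out 1 gene of the latter, in Ctrl cells (blue circles) and KO cells (orange triangles), filled where the adjusted p was under 0.05; bold names are genes described in full in the text. Most genes of both lists lie near 0, and *Edn1* and *F3* stand out at about 1.95 and 1.00 in Ctrl cells.

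Of 36 tested genes of the Hippo pathway itself, 3 rose and 4 fell in Ctrl cells, and 2 rose and 1 fell in KO cells, against 5.86% and 3.83% of all genes in Ctrl and 3.68% and 1.92% in KO cells. *Wwc2*, of the KIBRA family of upstream activators, rose by 0.54 ± 0.05 in Ctrl (adjusted p = 1.13e-06) and by 0.37 ± 0.05 (0.00017) in KO cells. *Limd1*, a relative of *Ajuba* that also binds LATS kinases, moved the opposite way to it (-0.31 ± 0.05 in Ctrl, adjusted p = 9.65e-05, and -0.22 ± 0.05 with 0.00521 in KO cells). *Frmd6*, which is in both lists, was lower in Ctrl cells (-0.19 ± 0.05, adjusted p = 0.0108). In the LIM and angiomotin families, with 8 tested genes besides *Ajuba* and *Amotl2*, *Fblim1*, an adaptor of adhesion sites, rose in both cell types (0.56 ± 0.05 and 0.40 ± 0.05), *Limd1* fell in both, and *Zyx*, encoding zyxin, fell in Ctrl cells (-0.12 ± 0.03, adjusted p = 0.03). The median of the Hippo list was -0.0061 in Ctrl and 0.019 in KO cells. None of its genes was called by edgeR between KO and Ctrl cells, and DESeq2 called 1 with ligand. In edgeR 2 in PBS and 6 with ligand had an unadjusted p under 0.05, beside 1071 and 1454 of all 15693 tested genes.

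Of 16 tested genes for receptors and binding partners of CCN proteins, 3 rose and 1 fell in each cell type (all genes: 5.86% and 3.83% in Ctrl, 3.68% and 1.92% in KO cells). The integrin subunit genes *Itga5* (0.33 ± 0.04 in Ctrl and 0.25 ± 0.04 in KO cells) and *Itgav* (0.36 ± 0.05 and 0.34 ± 0.05) rose, as did *Notch1* (0.30 ± 0.05 and 0.25 ± 0.05), whose product CCN3 binds. The proteoglycan gene *Sdc4* fell (-0.43 ± 0.05 and -0.34 ± 0.05). All 4 moved the same way in 4 of 4 isolations, and the median of the list was 0.019 in Ctrl and 0.022 in KO cells. *Dcn* was the 1 gene of this list that was lower in KO cells, in PBS (-0.61 ± 0.09, adjusted p = 0.016) and with ligand. Of 21 tested targets of SRF and MRTF, which share several targets with YAP, 3 rose and 1 fell in Ctrl cells and 2 rose in KO cells, beside the same shares of all genes. *Filip1l* rose in both (0.41 ± 0.07 and 0.36 ± 0.07), *Itga5* is also in this list, and *Fhl2*, encoding another LIM-domain protein, rose in Ctrl cells (0.45 ± 0.13, adjusted p = 0.0393, higher in 3 of 4 isolations). The median of the SRF and MRTF list was 0.0047 in Ctrl and -0.043 in KO cells.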

How the data were processed

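Poly-A RNA of 16 MLEC libraries (4 groups, 4 isolations) was sequenced from directional libraries. The authors deposited raw read counts per gene with gene length and GRCm39 coordinates. The submitters' processing notes name HISAT2 2.0.5, featureCounts 1.5.0-p3 and DESeq2 1.26.0. Counts on repeated or overlapping genes depend on that step. Groups came from the labels.

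Counts were filtered (edgeR filterByExpr by group, minimum count 10, minimum total 15), normalised by TMM and fitted with glmQLFit and glmQLFTest of edgeR 4.0.16 in R 4.3.3 over all 16 libraries, with the isolation as a block. The calls rest on Benjamini-Hochberg adjusted p under 0.05 over 15693 genes. SEs are the log2 fold change divided by the root of F. Confidence intervals (95%) and floors (3 counts) cover the model's spread and counting error only. CPM was computed without a prior count, and the log2 changes within isolations with a prior count of 2. The study removed batch effects before testing, and same-numbered libraries share an isolation. Their deviations from group means correlated at 0.757 on average (24 pairs, lowest 0.671), and those of different isolations at -0.252 (72 pairs). No 2 libraries of a group agreed within sampling noise (lowest chi-square per gene 10.9).

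The 8 genes and all lists were chosen with earlier results of these data known. Named besides them were at most the 4 called genes with the lowest adjusted p per list and comparison, the 3 most similar genes per member (Pearson r, isolation means removed, mean of at least 5 CPM), *Eng*, *Id1* and *Smad6*. Single cell type markers were named after their values were seen. Of the Hippo list, 1 gene is counted but not reported here by name. The motif search covered 250 bases before each start. Alternatives were no block, DESeq2 1.42.0, its size factors, no filter, the libraries of a comparison alone and leaving out each isolation. The scripts were tested on simulated data.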

Additional observations from a re-analysis of the deposited data

Results flagged for a closer look

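*Ankrd1* in KO cells with pro:BMP9 had 6.47 CPM in isolation 4, far below the other 3 libraries of that group (14.9 to 16.3 CPM). The gap to the nearest library was 0.855 of the range of the group, above the critical value of 0.829 for 4 samples. It was the only such library among 32 sets of 4 values (8 genes in 4 groups), and chance alone marks about 1 in 20 such sets. Isolation 4 was also the lowest for *Ankrd1* in the other 3 groups, at 7.06 to 8.20 CPM.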

How the results depend on the processing

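Without the replicate block, 0 of the 8 genes were called with ligand in Ctrl cells, 0 with ligand in KO cells and 0 between ligand-treated KO and Ctrl cells, against 5, 3 and 1 with it. With no filter on low counts the last count was 2, because *Ccn2* joined *Ccn4* (-0.12, adjusted p = 0.0448). Leaving out 1 isolation gave 2 to 4 called genes in Ctrl cells, 3 to 4 in KO cells and 0 to 1 for KO against Ctrl cells with ligand. The counts for KO against Ctrl in PBS and for the difference of responses were 0 under every alternative run. Over all genes, the number called without the block was 167 in Ctrl and 91 in KO cells, against 1521 and 878. For KO against Ctrl cells with ligand it was 40 with the block, 1 without it, 517 with no filter and 200 in DESeq2. In PBS it was 3, 1, 204 and 60 in the same order, and for the difference of responses 0, 0, 52 and 46. Without isolation 1, 2, 3 or 4 the count with ligand was 6, 15, 16 or 175, and that in PBS 3, 4, 1 or 69. The cause was not tested.

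Directions turned only where 1 isolation was left out, and only for log2 fold changes that were not called. Leaving out single isolations, *Ccn2* ranged from -0.055 to 0.15 with ligand in Ctrl, from -0.097 to 0.010 with ligand in KO cells and from -0.091 to 0.052 between KO and Ctrl in PBS. *Ankrd1* ranged from -0.013 to 0.15 in Ctrl and from -0.11 to 0.044 in KO cells, and from -0.11 to 0.014 for the difference of responses. *Ccn5* ranged from -0.31 to 0.14 in KO cells, from -0.43 to 0.045 between ligand-treated KO and Ctrl cells and from -0.27 to 0.25 for the difference. Between KO and Ctrl in PBS, *Ccn1* ranged from -0.034 to 0.056 and *Amotl2* from -0.051 to 0.049, and with ligand *Ajuba* ranged from -0.0048 to 0.069. CPM on library totals alone moved no group level by more than its SD. The counts of *Ccn5* limit what can be seen of it.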
